A study of Mus musculus with 2 samples.

Results

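Clusters of closely spaced distal DNase I peaks in mouse frontal cortex were found in each of 2 DNase-seq libraries by a rule on peak positions. In the longer of the authors' lists of peaks, on chromosomes 1 to 19, peaks within 1000 bp of any transcription start site (TSS) of GENCODE M21 were dropped. The remaining, distal peaks were joined across gaps of 3 kb or less, and runs of 4 or more peaks were kept. The rule gave 259 clusters in replicate 1, which hold 1308 of 29835 distal peaks (of 56015 peaks in all), and 1465 clusters in replicate 2, which hold 7133 of 80432 distal peaks (of 117579 in all). The tissue came from 36-day-old female mice of the B6CASTF1/J cross, with no treatment named. The labels give 1 group with biological replicates 1 and 2, so the only comparison is between these libraries. They carry separate tissue records but the same donor label, and the labels do not say if more than 1 animal was used, so the spread between them may be technical. Since peak positions chose the clusters, their number, peak count and spacing are a description with no test.

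DNase I is an enzyme that cuts accessible DNA, and stretches with many cuts are called as peaks of open chromatin. Distal peaks often mark enhancers, insulators and other elements away from promoters, and several of them can stand side by side near genes that define a cell's identity. A footprint is a short stretch inside a peak that is cut less than its surroundings, as happens under a bound protein.

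The sequences below come from 6 clusters that differ in the ways the results describe, and each is a peak of at most 300 bp that overlaps no annotated exon. They are read from the GRCm38 (mm10) genome on the plus strand, with bases of the authors' footprints in capitals. These clusters were picked after their values were seen. The highest distal peak of the replicate 2 cluster at Arc (activity-regulated cytoskeleton-associated protein, an immediate early gene of neurons) is chr15:74679161-74679420, 6.72 kb upstream of the Arc TSS and outside any gene. It carried 6 footprints over 52 bases.
Arc upstream: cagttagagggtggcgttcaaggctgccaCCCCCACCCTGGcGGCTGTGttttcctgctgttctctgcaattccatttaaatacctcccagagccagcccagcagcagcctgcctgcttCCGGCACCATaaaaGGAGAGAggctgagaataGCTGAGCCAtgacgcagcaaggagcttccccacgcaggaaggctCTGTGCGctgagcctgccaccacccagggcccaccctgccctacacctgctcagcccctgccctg
On the other side of the gene, chr15:74664461-74664716 lies 7.98 kb downstream of the Arc TSS, outside any gene. It had 3 footprints and no overlapping peak in replicate 1.
Arc downstream: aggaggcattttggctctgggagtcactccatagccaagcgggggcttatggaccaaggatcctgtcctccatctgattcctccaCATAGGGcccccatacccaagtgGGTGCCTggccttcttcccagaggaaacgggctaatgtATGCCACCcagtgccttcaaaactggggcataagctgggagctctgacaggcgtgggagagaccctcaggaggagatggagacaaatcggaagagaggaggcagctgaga
The replicate 1 peak chr4:22494981-22495260 lies 6.76 kb upstream of Pou3f2, a POU-domain transcription factor of upper-layer cortical neurons, in a cluster found in both replicates. It had 5 footprints.
Pou3f2 upstream: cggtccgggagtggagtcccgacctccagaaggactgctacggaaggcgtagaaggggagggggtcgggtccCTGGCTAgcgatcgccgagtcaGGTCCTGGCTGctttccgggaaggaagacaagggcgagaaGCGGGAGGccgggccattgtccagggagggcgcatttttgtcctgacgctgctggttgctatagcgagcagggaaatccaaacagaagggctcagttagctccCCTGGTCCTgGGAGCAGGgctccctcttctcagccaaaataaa
The replicate 2 peak chr6:6885002-6885179 lies 3.01 kb upstream of Dlx5, a homeobox gene of GABAergic interneurons, in a cluster with no peak in replicate 1. It had 3 footprints.
Dlx5 upstream: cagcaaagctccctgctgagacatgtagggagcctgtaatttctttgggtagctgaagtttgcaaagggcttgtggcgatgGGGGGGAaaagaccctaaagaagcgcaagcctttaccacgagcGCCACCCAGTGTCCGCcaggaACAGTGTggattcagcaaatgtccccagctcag
The replicate 2 peak chr4:82542201-82542420 lies in an intron of Nfib, a nuclear factor I gene active in cortical development and in astrocytes, and also in one of the overlapping gene Gm11266. It had 4 footprints over 62 bases.
Nfib intron: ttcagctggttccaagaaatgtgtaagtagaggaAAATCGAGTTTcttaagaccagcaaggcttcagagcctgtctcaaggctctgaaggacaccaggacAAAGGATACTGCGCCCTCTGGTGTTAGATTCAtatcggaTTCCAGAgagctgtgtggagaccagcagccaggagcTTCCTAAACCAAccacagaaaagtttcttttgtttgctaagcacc
The replicate 2 peak chr2:167295101-167295160 belongs to the cluster with the most peaks in either library, at B4galt5, a galactosyltransferase gene of glycosphingolipid synthesis. It lies outside the gene and had 2 footprints.
B4galt5 cluster: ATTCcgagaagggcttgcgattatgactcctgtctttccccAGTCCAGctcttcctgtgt
The replicate 1 peak chr7:97303621-97303840 lies in an intron of Gab2, which encodes a signalling adaptor. Its cluster had no footprint and no peak in replicate 2, so no base is in capitals.
Gab2 intron: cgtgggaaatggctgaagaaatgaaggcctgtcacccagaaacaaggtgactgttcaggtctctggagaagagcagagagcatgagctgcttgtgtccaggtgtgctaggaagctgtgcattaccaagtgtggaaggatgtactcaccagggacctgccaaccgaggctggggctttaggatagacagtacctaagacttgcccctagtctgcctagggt

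A further pair of peaks is shown because many clusters of highest signal lay over tRNA genes. Both lie in 1 cluster downstream of Ctc1, a telomere maintenance gene, and here the capitals mark the RefSeq tRNA gene, on the plus strand. The peak chr11:69041701-69041920 covers a tRNA-Trp gene and chr11:69040241-69040540 a tRNA-Pro gene, and each held 5 footprints in replicate 1.
tRNA-Trp: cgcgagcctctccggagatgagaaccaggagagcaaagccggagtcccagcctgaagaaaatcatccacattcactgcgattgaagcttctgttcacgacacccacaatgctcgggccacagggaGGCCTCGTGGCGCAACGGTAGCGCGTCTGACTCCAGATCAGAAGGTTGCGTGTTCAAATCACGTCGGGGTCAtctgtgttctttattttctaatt
tRNA-Pro: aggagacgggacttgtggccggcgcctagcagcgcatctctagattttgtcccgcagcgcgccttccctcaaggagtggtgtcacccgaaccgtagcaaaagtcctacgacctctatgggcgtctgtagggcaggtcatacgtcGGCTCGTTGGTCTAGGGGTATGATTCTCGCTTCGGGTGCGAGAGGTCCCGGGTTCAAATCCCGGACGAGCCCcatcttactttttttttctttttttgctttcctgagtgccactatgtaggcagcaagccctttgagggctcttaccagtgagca

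Promoter peaks were looked up for marker genes of cell types of the labelled tissue. Excitatory neuron markers had one for 4 of 6 genes in replicate 1 and 5 of 6 in replicate 2, and inhibitory neuron markers for 1 of 4 and 4 of 4. Astrocyte markers had one for 3 of 3 genes in both replicates and oligodendrocyte markers for 2 of 3 and 3 of 3. No promoter peak was found for the 3 microglial or the 3 vascular markers in either replicate. The excitatory marker Slc17a7 had a promoter peak in replicate 1 but none in replicate 2. The share of all genes with a promoter peak was not set beside these counts, nor were markers of other tissues. The counts thus describe these markers only and do not test the tissue label. The libraries differ in peak number, 2.10-fold in all and 2.70-fold for distal peaks, and this difference stands beside every comparison between them.

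Clusters were a small part of the distal peaks in both libraries, and replicate 2 had 5.66-fold more of them. The number of clusters was 862 ± 853 (SD, n = 2). They held 4.38% of the distal peaks in replicate 1 (95% Wilson interval 4.16 to 4.62%) and 8.87% in replicate 2 (8.67 to 9.07%). The Wilson intervals given here cover counting error only. They count each peak as a separate draw, though peaks of 1 cluster are neighbours, so those for clustered peaks may be too narrow. The clusters spanned 891 kb in replicate 1 and 5.52 Mb in replicate 2. When the distal peaks of replicate 2 were shortened to the 29835 of highest signal, as many as replicate 1 has, it gave 244 clusters beside the 259 of replicate 1.

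The shape of a cluster was alike in the libraries. Its median width was 2848 bp in replicate 1 and 3378 bp in replicate 2, and the widest reached 16029 and 15920 bp. The median gap between neighbouring peaks was 291 and 340 bp. Most clusters sat at the lower limit of the rule, with 4 peaks in 59.8% and 60.3% of them, and 12 and 37 clusters held 10 or more. Just outside the rule lay 588 and 2773 runs of 3 peaks, beside 155 and 883 runs of 4. Median peak signal, the authors' density normalized for read depth, was 0.730 and 0.660 in runs of 3 peaks and 0.754 and 0.689 in runs of 4, so it did not step at the threshold. Neighbouring peaks overlapped each other at 72 of 1049 gaps in replicate 1 and 334 of 5668 in replicate 2, so some clusters hold neighbouring calls on the same open stretch.

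**Figure D1:**
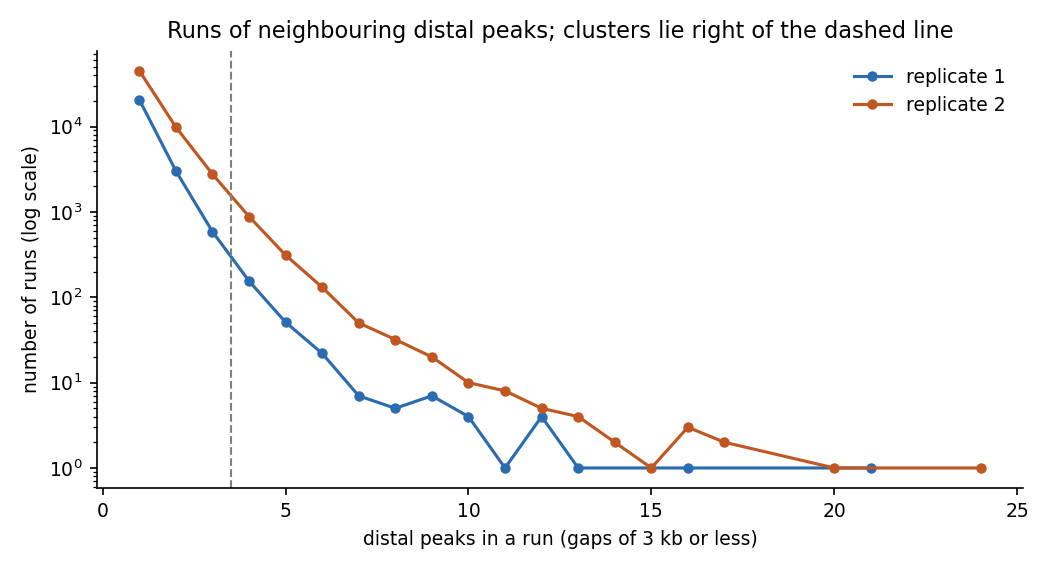
Number of runs (log scale) by the number of distal peaks in a run, for each replicate; points are counts and the dashed line marks the rule of 4 or more peaks. Replicate 2 lies above replicate 1 from runs of 1 peak to runs of 13 and at runs of 16. The counts fall from 588 and 2773 runs of 3 peaks to 155 and 883 runs of 4.

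Clusters of replicate 1 were often found again in replicate 2, and the reverse was rarer. Clusters overlapped in 151 pairs, which are 58.3% of the replicate 1 clusters (52.2 to 64.1%) and 10.3% of the replicate 2 clusters (8.85 to 12%). With lists of equal length, 81 pairs remained, 31.3% of replicate 1 and 33.2% of replicate 2. Within the 151 pairs, 66 had the same number of peaks in both, 63 had more in replicate 2 and 22 had fewer. The median signal was higher in replicate 2 in 125 of the 151 pairs, with a median ratio of 1.32. Peaks outside clusters were shifted the same way: of the 25827 other distal peaks of replicate 1 found in replicate 2, 90.9% had a higher signal there, with a median of 1.5-fold, and of the 933 such clustered peaks 88.6% did, with 1.47-fold.

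Most replicate 1 clusters without a partner still had open chromatin in replicate 2. Of the 108, 12 had no replicate 2 peak, 13 had 1, 27 had 2, 49 had 3 and 7 had 4 or more. Of the 1314 replicate 2 clusters without a partner, 427 had no replicate 1 peak, 381 had 1, 311 had 2, 165 had 3 and 30 had 4 or more. The authors' cleavage table gives a second view, as the share of a cluster's bases at an FDR of 0.05 or less in the other library. In clusters without a partner its median was 35.7% for replicate 1 clusters and 5.66% for replicate 2 clusters, against 62.1% and 37.8% in clusters with one. No such base was present in the other library in 12 of the 259 clusters of replicate 1 (4.63%) and in 363 of the 1465 of replicate 2 (24.8%). The unshared clusters had a lower median signal, 0.598 and 0.655, than the shared, 0.831 and 1.11.

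Peaks inside clusters recurred in the other library less often than other distal peaks, in each signal quartile of replicate 1 and in the upper 3 of replicate 2. In replicate 1, 71.3% of clustered peaks overlapped a replicate 2 peak (68.8 to 73.7%), against 90.5% of other distal peaks (90.2 to 90.9%). In replicate 2 the shares were 30.7% (29.6 to 31.8%) and 32.9% (32.6 to 33.3%). In the lowest signal quartile of replicate 1 they were 39.4% of 398 clustered peaks and 74.9% of other distal peaks, and in the highest 95.1% and 99.5%. In replicate 2 the highest quartile gave 71.6% and 79.2%, while the intervals overlapped in the lowest, at 4.97% and 5.33%. The share was lower in larger runs, from 92.9% of single peaks in replicate 1 to 78.5% in runs of 4 and 38.9% in runs of 10 or more. In replicate 2 it was 33.1% for single peaks, 31.6% in runs of 4 and 22.2% in runs of 10 or more. Median signal was 0.742 in single peaks and 0.707 in runs of 6 to 9 in replicate 1, where 69.0% of peaks recurred, and 0.621 and 0.694 in replicate 2. It was lowest in runs of 10 or more, at 0.342 and 0.505, and its part in their share was not tested.

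Footprints followed the signal of a peak, and within each signal quartile clustered peaks held them less often than other distal peaks. A footprint of the same library lay in 59.6% of clustered peaks in replicate 1 (56.9 to 62.2%) and 66.2% in replicate 2 (65.1 to 67.3%), against 66.1% and 69.1% of other distal peaks. The share rose from 24.9% in the lowest signal quartile to 93.9% in the highest for clustered peaks of replicate 1, and from 24.3% to 95.3% in replicate 2. Other distal peaks had 28.2% and 97.8% in those quartiles of replicate 1, and 27.6% and 98.0% in those of replicate 2. The shares lay further apart in the middle quartiles of replicate 2. There they were 56.6% of clustered against 64.3% of other distal peaks in quartile 2 from the lowest, and 78.7% against 87.5% in quartile 3. In replicate 1 these were 49.8% against 55.4% and 79.3% against 82.8%, with overlapping intervals. Runs of 10 or more peaks had the lowest share, 36.9% and 55.7%. Every peak held a footprint in 42 clusters of replicate 1 and 280 of replicate 2, and no peak did in 9 and 18.

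**Figure D2:**
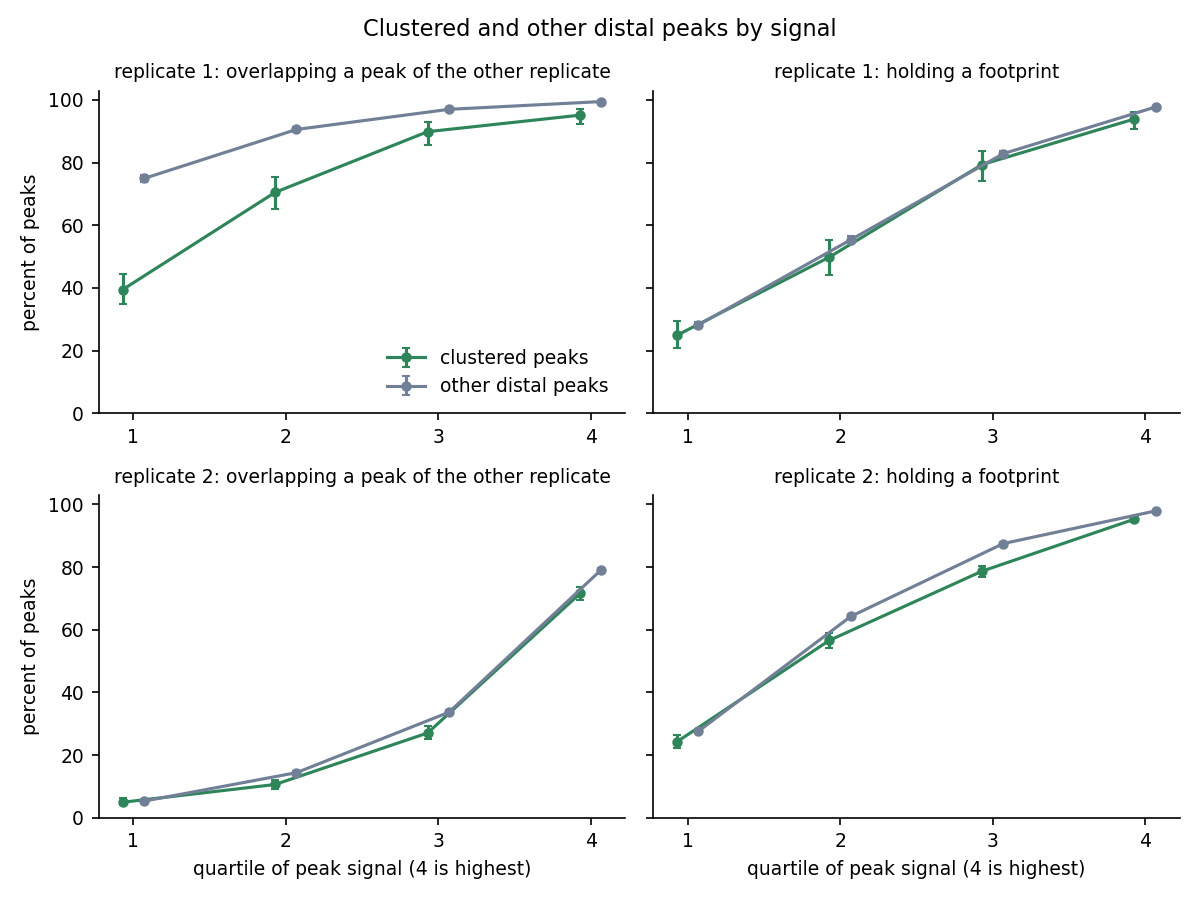
Percent of clustered (green) and other distal (grey) peaks that overlap a peak of the other replicate (left) or hold a footprint (right), by quartile of peak signal within each replicate; bars are 95% Wilson intervals. In replicate 1 the clustered peaks recur less often in each quartile, from 39.4% against 74.9% in the lowest to 95.1% against 99.5% in the highest, while the footprint shares lie closer, at 24.9% against 28.2% and 93.9% against 97.8%.

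Clustered peaks lay closer to genes' starts and over exons more often than other distal peaks. In replicate 1, 45.6% of clustered peaks lay within 10 kb of a protein-coding TSS against 28.9% of other distal peaks, and in replicate 2 the shares were 37.6% and 26.7%. An exon was overlapped by 15.4% and 11.9% of clustered peaks and by 8.62% and 7.71% of the others. The midpoint of a cluster fell within a protein-coding gene in 42.1% of clusters in replicate 1 (36.2 to 48.2%) and 48.5% in replicate 2 (46.0 to 51.1%), beside 46.2% and 49.1% of other distal peaks. Median peak width was 200 and 219 bp in clusters and 176 and 195 bp outside them. Mean GC content was 54.0% and 52.3% in clusters and 52.6% and 50.6% outside. Median signal was 0.707 in clusters and 0.742 outside them in replicate 1, and 0.680 and 0.641 in replicate 2, log2 differences of -0.07 and 0.08 whose direction differed between the libraries.

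Many of the clusters of highest signal lay over tRNA genes. Transfer RNA genes are short, are transcribed by RNA polymerase III from promoters inside the gene, and often stand in groups, and the tRNA genes used here come from the RefSeq annotation of the same build. Peaks on them counted as distal unless a GENCODE TSS was near, so of the 214 tRNA genes under a peak in replicate 1 and the 243 in replicate 2, 155 and 184 lay under a distal peak. That annotation was set beside the clusters after their values were seen. Of 386 such genes on chromosomes 1 to 19, 68 lay within a cluster of replicate 1 and 92 within a cluster of replicate 2. A tRNA gene was overlapped by 63 of 1308 clustered peaks in replicate 1, or 4.82% (3.78 to 6.12%), against 0.323% of other distal peaks (0.263 to 0.395%). In replicate 2 these were 83 of 7133, or 1.16% (0.940 to 1.44%), and 0.134% (0.110 to 0.163%). In the highest signal quartile a tRNA gene lay under 17.9% of clustered peaks in replicate 1 and 4.08% in replicate 2, against 1.09% and 0.486% of other distal peaks.

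Clusters with a tRNA gene numbered 19 of 259 in replicate 1 (7.34%) and 27 of 1465 in replicate 2 (1.84%). They made up 11 of the 20 clusters with the highest median signal in replicate 1 and 10 of the 20 in replicate 2. Their median signal was 1.70 in replicate 1 and 2.03 in replicate 2, against 0.695 and 0.675 for clusters without one, and the ranges overlap. In replicate 1, 15 of the 19 overlapped a replicate 2 cluster, 78.9% (56.7 to 91.5%), and 136 of the 240 without a tRNA gene did, 56.7% (50.3 to 62.8%), so these intervals overlap. In replicate 2, 15 of the 27 overlapped a replicate 1 cluster, 55.6% (37.3 to 72.4%), against 136 of the 1438 others, 9.46% (8.05 to 11.1%). Each of the 63 clustered peaks on tRNA genes in replicate 1 held a footprint and overlapped a replicate 2 peak, and of the 1245 clustered peaks without a tRNA gene 57.5% and 69.9% did. Of the 63, 59 were in the highest signal quartile, where the shares of all clustered peaks were 93.9% and 95.1%. Peaks on tRNA genes outside clusters had 97.8% for both. In replicate 2, 98.8% of the 83 clustered peaks on tRNA genes held a footprint and 86.7% overlapped a replicate 1 peak. The highest quartile of clustered peaks there had 95.3% and 71.6%.

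The cluster downstream of Ctc1, whose tRNA-Trp and tRNA-Pro peaks are printed above, had 9 peaks in replicate 1 and 8 in replicate 2 over 5.96 kb, with 7 tRNA genes. Peak signal ran from 1.04 through a median of 2.64 to 5.20 in replicate 1, and from 3.02 through 4.52 to 8.05 in replicate 2. The tRNA-Trp peak was the highest in both libraries, at 5.20 and 8.05, and the tRNA-Pro peak stood at 3.5 and 4.70. The B box, the downstream element of the internal tRNA promoter, was searched on both strands as a consensus. It matched bases 195 to 204 of the tRNA-Pro peak and did not match the tRNA-Trp peak. It was found in 6.12% of clustered and 1.59% of other distal peaks in replicate 1 and in 2.87% and 1.58% in replicate 2, and in 1.79% and 1.70% of all distal peaks. Other tRNA clusters of both replicates lay nearest to Cfap126 (4 tRNA genes, median signal 3.12 and 4.13), Hfe2 (5 tRNA genes, 2.04 and 3.14), Zfp213 (3 tRNA genes, 2.80 and 3.31) and Shf (3 tRNA-His genes, 2.09 and 3.08). In these 4 the median was higher in replicate 2, as signal was at most distal peaks, and at Trim27 (7 tRNA genes) it was lower, at 1.78 in replicate 1 and 1.16 in replicate 2. The Trim27 medians are over 4 peaks in replicate 1 and 9 in replicate 2. Its highest peak was higher in replicate 2, at 3.10 against 2.51.

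**Figure D3:**
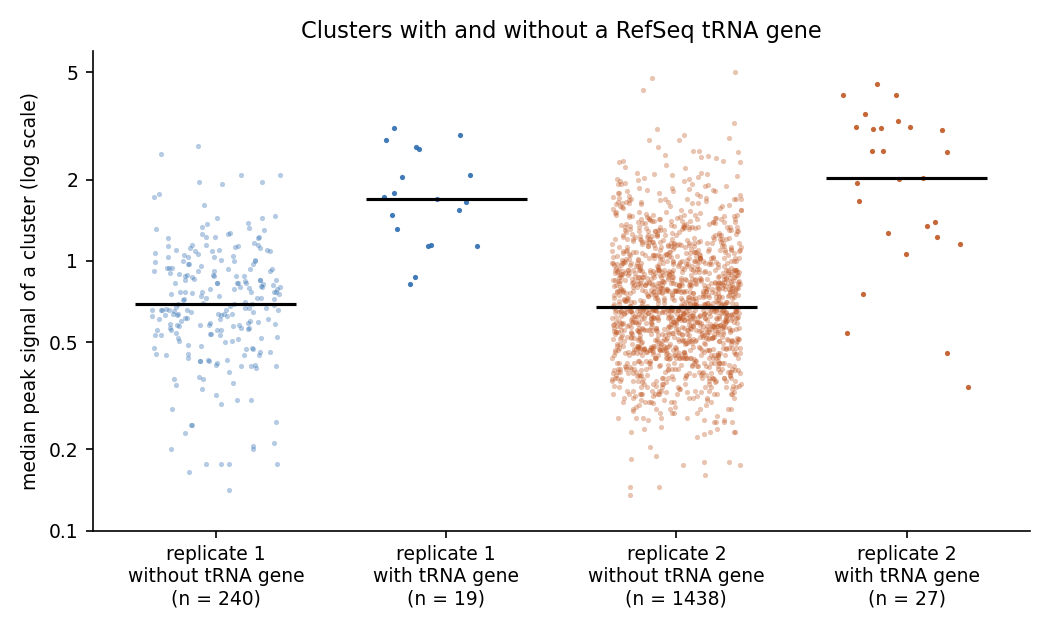
Median peak signal of every cluster (log scale), by replicate and by whether the cluster holds a RefSeq tRNA gene; points are clusters, spread sideways at random, and black lines are medians. The medians with a tRNA gene are 1.70 and 2.03, above 0.695 and 0.675 without, and the points of the classes overlap.

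Starts that GENCODE M21 does not hold touched other clusters too. Of the clustered peaks, 11.2% in replicate 1 and 7.70% in replicate 2 lay within 1000 bp of a RefSeq transcript start other than a tRNA, against 4.87% and 3.74% of other distal peaks. Also, 14 clusters of replicate 1 and 80 of replicate 2 ran across a TSS, with distal peaks on both sides of a promoter.

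The clusters held fewer CTCF motifs and more GC-box motifs for their length than other distal peaks. Of the 20 consensus motifs searched on both strands, the CTCF core, the site of the insulator protein CTCF, was 0.295-fold as dense in clustered peaks as in other distal peaks in replicate 1 and 0.557-fold in replicate 2. It occurs in 7.93% and 4.38% of all distal peaks. Among peaks of the highest signal quartile, 7.90% of clustered peaks held it against 18.1% of the others in replicate 1, and 7.85% against 11.5% in replicate 2. The SP/KLF motif GGGGCGGGG, a GC box, was 1.92-fold and 1.68-fold as dense in clusters. It is present in 1.1% and 0.916% of all distal peaks, and in the highest quartile in 6.08% of clustered against 1.80% of other peaks in replicate 1 and 3.37% against 1.61% in replicate 2. Clustered peaks also lay nearer to genes' starts and had a higher GC content, and the part of these in the motif densities was not tested.

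The motifs of AP-1 and of neurogenic factors were less dense in clusters. The AP-1 motif TGANTCA, bound by FOS and JUN proteins, was 0.572-fold and 0.681-fold as dense as in other distal peaks and is found in 9.64% and 13.3% of all distal peaks. The NEUROD and NEUROG motif CAGATGG, of neurogenic basic helix-loop-helix factors, was 0.612-fold and 0.713-fold as dense and is found in 10.2% and 11% of all distal peaks. The printed downstream Arc peak holds this letter string on the minus strand at bases 70 to 76, and the printed upstream Arc peak holds none of the 20 motifs.

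In replicate 2 the gene with the most clusters, each cluster being given to the protein-coding gene with the nearest TSS, was Zfp608, a zinc finger gene, with 5, and it had 2 in replicate 1. Of these, 4 of the 5 in replicate 2 lay 23.4 to 702 kb upstream of its start, so the nearest start can be far away. Another 7 genes had 4 clusters in replicate 2. Adgrb1, an adhesion receptor gene of synapses and phagocytosis, and Ctnna1, which encodes alpha-catenin, had 1 each in replicate 1. Cdk5r1 (the p35 activator of Cdk5), Fars2 (a mitochondrial tRNA synthetase), Ntm (the cell adhesion molecule neurotrimin), Prss52 and Rgs6 (a regulator of G protein signalling) had 0. The clusters given to Prss52 lay in the body of Msra, a methionine sulfoxide reductase gene, and 3 of the 4 given to Cdk5r1 in that of Myo1d, an unconventional myosin gene. In replicate 1 no gene had more than 2, and 9 genes had 2, namely Acot11, Irf2bp2, Kcnd3, Pcdh1, Pmfbp1, Pou3f2, Shf, Tex44 and Zfp608. Of these, Pmfbp1 and Pou3f2 had 3 in replicate 2, Acot11 and Shf had 2, and Kcnd3 had 0.

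Pou3f2 had a pair of clusters that recurred in both libraries, one on each side of the gene. The upstream cluster, which holds the printed Pou3f2 peak, had 6 peaks in each replicate. The signal values in replicate 1 were 0.978, 0.624, 1.15, 0.542, 0.648 and 0.884, in order along the chromosome. In replicate 2, over the same span, they were 0.835, 0.922, 0.767, 1.77, 1.18 and 1.34. The highest peak was the same stretch in both, with 5 footprints in each. The cluster on the far side, 9.74 kb downstream of the start in replicate 1, had 6 peaks in each replicate, with median signals of 0.754 and 0.859. Both medians were higher in replicate 2, as signal was at most distal peaks in and outside clusters, while the highest peak of the far cluster stood at 1.34 in replicate 1 and 1.28 in replicate 2. Tbr1, a T-box transcription factor of deep-layer neurons, likewise had a cluster in both, with 9 peaks at a median of 0.624 in replicate 1 and 10 peaks at 0.854 in replicate 2.

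The Arc cluster was called in replicate 2 alone. It ran over 15.4 kb, chr15:74664045-74679420, on both sides of the gene, with 17 distal peaks of signal 0.437 at the lowest, 0.874 at the median and 3.01 at the highest, and 14 of the 17 held a footprint. Replicate 1 had 1 distal peak there, the printed upstream one, at a signal of 1.56, and 1 peak at the promoter, at 2.98 beside 5.99 in replicate 2. Bases at an FDR of 0.05 or less made up 49.3% of the span in replicate 2 and 4.04% in replicate 1.

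Several large clusters of replicate 2 had no peak and no base at an FDR of 0.05 in replicate 1. Gabbr1, a subunit of the GABA-B receptor, had 20 peaks with a median signal of 0.301. Llgl1, a cell polarity gene, had 17, Dlgap3, a postsynaptic scaffold gene, had 16, Dlx5 had 14, Neurod2, a neuronal basic helix-loop-helix factor, had 12, and Fezf2, a transcription factor of subcortically projecting neurons, had 10. Their median signals were 0.175, 0.437, 0.466, 0.646 and 0.621 in that order, all below the 0.680 of clustered peaks of that library. Foxa1, a forkhead factor gene best known from endoderm, had 13 at a median of 0.359.

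Several large clusters called in replicate 1 alone were of low signal too. The 12 peaks in the Gab2 intron had signals of 0.130 to 0.318 and no footprint. Rasgrf1, a Ras exchange factor gene, had 12 peaks at a median of 0.212, Tcf20 had 9 at 0.306 and Stk32c had 9 at 0.177. None of these 4 spans had a peak or a base at an FDR of 0.05 in replicate 2, while 58.7%, 36.4%, 67.1% and 45.4% of their bases reached it in replicate 1. Bnip3l, a mitophagy receptor gene, had 16 peaks at a median of 0.253 with 3 replicate 2 peaks in the span, and Kcnd3, a potassium channel gene, had 13 at 0.20 with 1. Others held higher peaks. Cbx6 had 10 peaks at a median of 0.672, beside 0.707 for all clustered peaks of replicate 1. Gm20219 had 12 at 0.336, with a highest peak of 2.00. Each of these 2 spans held 3 replicate 2 peaks.

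The cluster with the most peaks was the same in both libraries. At B4galt5 replicate 1 had 21 distal peaks over 16.0 kb and replicate 2 had 24 over 15.9 kb. The median signal there was 0.247 in replicate 1 and 0.184 in replicate 2, below the clustered peaks as a whole, and the highest peak reached 0.742 and 1.44. Repeats covered 21.2% and 21.3% of the spans, and 8 distal peaks held a footprint in each library. In contrast, the cluster nearest Tmem161b, a gene for a membrane protein, had 9 and 13 peaks, with a highest peak of 4.78 and 7.04, though it lies 96.1 kb from that gene's start in replicate 1. The Nfib cluster, which holds the printed Nfib peak, had 15 peaks over 10.4 kb in replicate 2. The replicate 1 cluster there had 5 peaks over 1938 bp, several of them overlapping each other, and did not reach the printed peak, which replicate 1 held as a distal peak outside the cluster. That peak stood at 1.66 in replicate 2 and 0.742 in replicate 1.

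**Figure D4:**
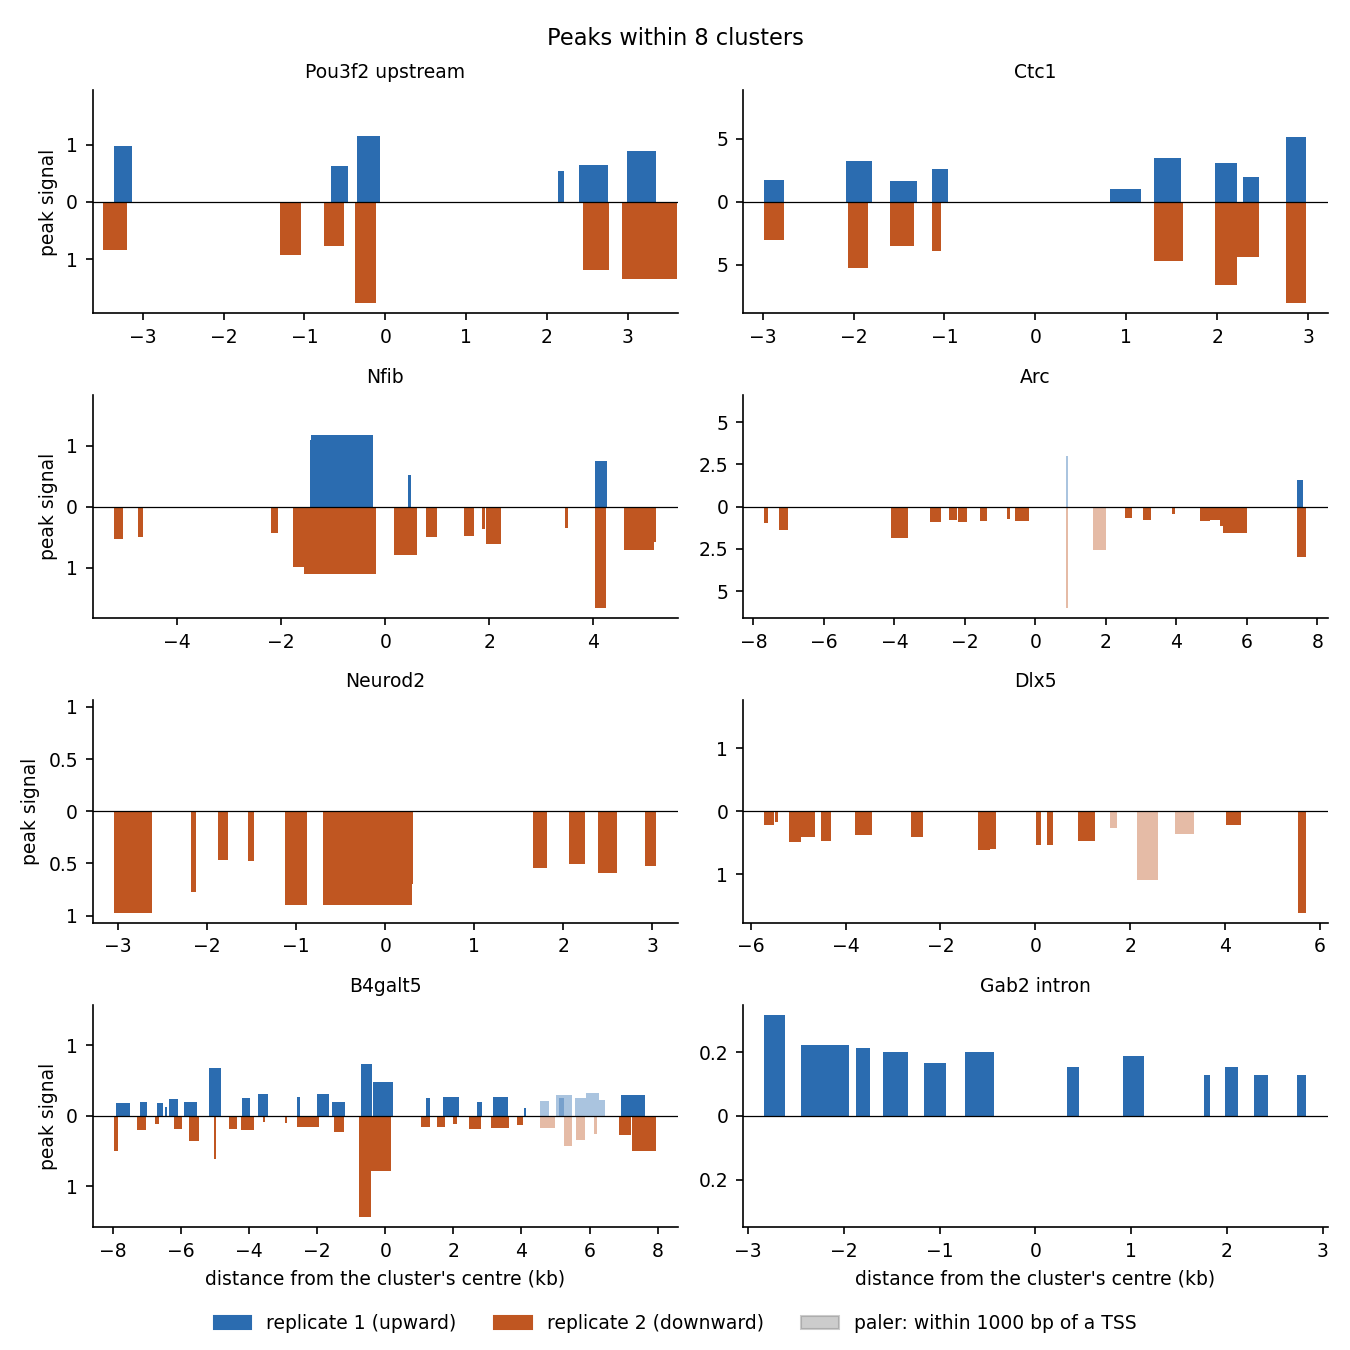
Peaks of 8 clusters by distance from the centre of the cluster in kb; bar width is peak width and bar height is peak signal, upward for replicate 1 and downward for replicate 2, with peaks within 1000 bp of a TSS paler. The Pou3f2 and Ctc1 clusters are seen in both replicates, the Arc, Neurod2 and Dlx5 clusters mainly or wholly in replicate 2, and the Gab2 intron has 12 low peaks in replicate 1 and none in replicate 2.

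Gene lists were described by whether a cluster lay in the gene body or 10 kb to each side. Over all 20807 protein-coding genes the share was 1.06% in replicate 1, 5.22% in replicate 2 and 0.625% in both. Of 20 excitatory neuron genes, 2 had a cluster in replicate 1, 10 in replicate 2 and 2 in both, which were Tbr1 and Pou3f2. Among the others in replicate 2 were the transcription factor genes Fezf2, Bcl11b, Foxp2, Neurod2, Neurod6 and Pou3f3, and the kinase gene Camk2a. Genes of this list had a median of 1.5 distal peaks in replicate 1 and 10.5 in replicate 2 and a median span of 46.5 kb, against 0 and 1 and 17.6 kb for all protein-coding genes. The share of a list thus stands beside longer genes with more distal peaks, and their part in it was not tested.

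The other neuronal lists had clusters in replicate 2 only. Of 20 inhibitory neuron genes, 4 had one, namely Dlx5 and Dlx6, which share 1 cluster, Prox1 and Sp9, all transcription factor genes. Of 20 activity-regulated genes, 5 had one, the transcription factor genes Egr4, Npas4 and Nr4a3, the clock gene Per1, and Arc. The Per1 cluster also held 2 tRNA genes, and 2 of its 14 peaks lay on tRNA genes. The highest peaks in the Npas4 and Nr4a3 clusters reached 4.80 and 4.72. The median span of that list was 7.04 kb, shorter than that of all genes, and its median number of distal peaks in replicate 2 was 4, above the 1 of all genes. Of 19 synapse and channel genes, 4 had one, the NMDA receptor subunits Grin1 and Grin2a, the scaffold gene Dlg4 and the calcium channel gene Cacna1c. The Grin1 cluster lies nearest to the start of Tmem210. Synapse and channel genes had a median span of 170 kb and a median of 9 distal peaks in replicate 2. For all protein-coding genes these were 17.6 kb and 1, and the part of this difference was not tested.

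The glial and other lists had 0 to 2 genes with a cluster in each replicate. Slc1a3, an astrocytic glutamate transporter, had a cluster of 4 peaks in both replicates, with median signals of 0.990 and 1.40, and Rfx4 had one in replicate 2, nearest to the start of Ric8b, of 20 astrocyte genes. Sox8 had one in both, of 19 oligodendrocyte lineage genes, with 6 peaks in each at 0.760 and 0.898. Of 19 microglial genes, Cx3cr1 had one in replicate 1, nearest to the start of Csrnp1, and Sall1 one in replicate 2. Of 20 vascular genes, Foxc1 had 2 clusters and Tbx18 had 1, all in replicate 2. Of 18 housekeeping genes, Ppia and Rplp0 had one in replicate 2, and these clusters lie in the neighbouring genes Zmiz2 and Gcn1l1. Of 20 skeletal muscle genes, Casq1 had one in replicate 2, in Pea15a.

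**Figure D5:**
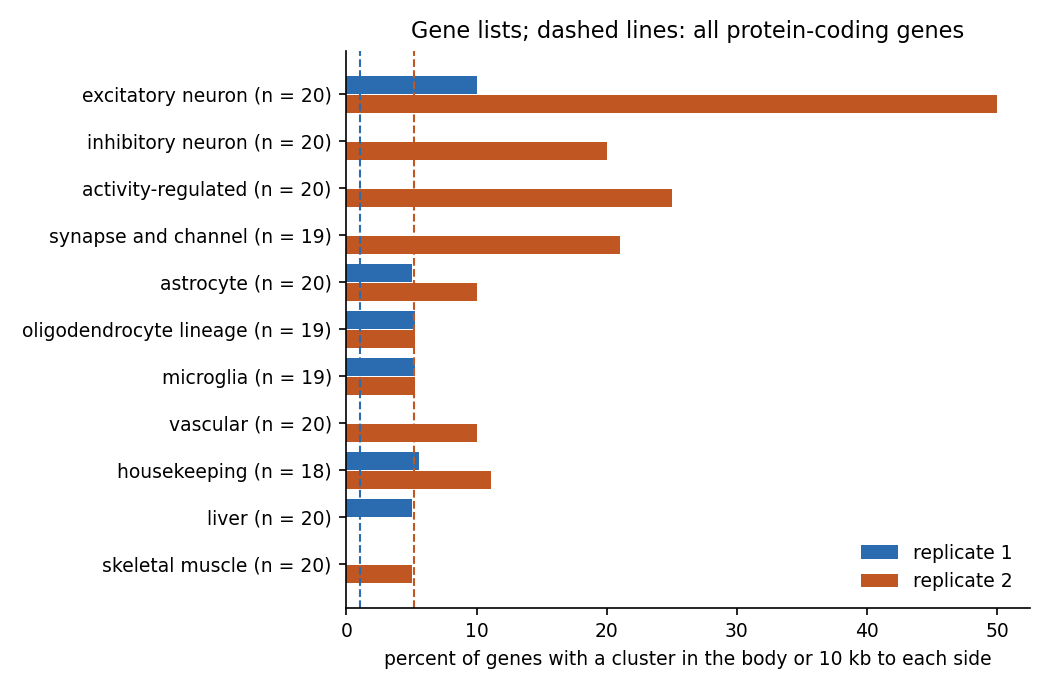
Percent of each gene list with a cluster in the gene body or 10 kb to each side, by replicate; bars start at 0 and dashed lines are the shares of all protein-coding genes, 1.06% and 5.22%. In replicate 2 the excitatory neuron list stands at 50% and the activity-regulated list at 25%, and lists of other tissues stand at 0 or 5%.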

How the data were processed

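DNase-seq libraries of 1 group, replicates 1 and 2, were analysed from the deposited files, on build mm10 per the labels. Neither labels nor headers name the aligner, the callers or their thresholds, and library totals were not analysed here. The peak signal deposited by the authors is a density normalized for read depth. The p-value column of the deposited cleavage table is an FDR of at most 0.05. The deposited footprint list carries 0.01 in every row, so footprints were not ranked. Distal peaks, clusters and overlaps of at least 1 bp were computed with Python 3.11.15, numpy 2.4.6 and pandas 2.3.3, and 95% Wilson intervals with statsmodels 0.14.6. The code was tested on 2000 simulated runs, and found 1281 of 1281 planted clusters. Motifs were exact matches to 20 consensus sequences and the B box on both strands. TSSs and genes came from GENCODE M21, tRNA genes and further starts from RefSeq, and sequence from GRCm38. The 11 gene lists held 220 genes, 215 of them on chromosomes 1 to 19.

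The members, lists and motifs were chosen with earlier results of these data known. The rule for named genes took, per replicate, the 10 genes with the most clusters and those of the 10 clusters with the most peaks, and up to 4 members per list. Some genes it selects are not reported here. Further members of the lists, the clusters of Neurod2, Fezf2, Foxa1, Tcf20, Stk32c, Tmem161b and the tRNA clusters, the printed sequences, the cleavage table's shares, run size classes and motif shares in the highest quartile were chosen after their values were seen. No test was made, since there is 1 group and the rule used the peaks. Alternatives were other gaps, peak numbers, TSS distances and sets, list lengths, signal limits, merged peaks, gene windows and leaving out each replicate. Runs broken at a TSS, touching peaks merged, clusters under 10 peaks, and RefSeq starts or tRNA genes also dropped were added after the data were seen.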

Additional observations from a re-analysis of the deposited data

How the results depend on the processing

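Of 116 alternative values over 8 results, 75 stayed within the limits of the main value (1.5 times for the number of clusters, 1 SD over replicates or the Wilson interval for the others) and 41 moved beyond them. The mean number of clusters, 862, became 468 with a gap of 1 kb, 2542.5 with 3 or more peaks, 343 with 5 or more, 197 in the shorter lists, 267 in the 50% of distal peaks with the highest signal, 251.5 with equal list lengths and 385 with peaks within 200 bp counted as 1. The share of distal peaks in clusters, 6.63%, became 14.8% with 3 or more peaks, 3.39% with 5 or more, 3.43% in the shorter lists and 3.41% with peaks within 200 bp counted as 1.

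The share of replicate 1 clusters with a partner, 58.3%, became 66.3% with a gap of 5 kb, 64.7% with 3 or more peaks, 74.7% in the upper 50% of signal, 31.3% with equal list lengths and 48.6% with peaks within 200 bp counted as 1. For replicate 2 the share, 10.3%, became 12.9% with 3 or more peaks, 13.0% in the upper 50% of signal, 33.2% with equal list lengths and 8.02% with peaks within 200 bp counted as 1. The share of clusters in protein-coding genes, 45.3%, became 39.2% with a TSS distance of 2000 bp. The mean log2 signal difference, 0.01, became -0.21 in the shorter lists. The share of clustered peaks with a footprint, 62.9%, became 68.2% in the shorter lists, 85.6% in the upper 50% of signal and 74.2% with equal list lengths.

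The share of protein-coding genes with a cluster in both replicates, 0.625%, became 0.303% and 1.00% with gaps of 1 and 5 kb, 2.24% and 0.284% with 3 and 5 or more peaks, 0.423% at 2000 bp, 0.769% with protein-coding TSSs only, 0.144% in the shorter lists, 0.269% in the upper 50% of signal, 0.370% with equal list lengths and 0.250% with peaks within 200 bp counted as 1. It was 0.346% in gene bodies alone and 1.56% with 50 kb to each side. Without replicate 1 or replicate 2 in turn, the number of clusters ranged from 259 to 1465 and the share of genes from 1.06% to 5.22%. Dropping peaks near tRNA genes left 240 and 1439 clusters, and dropping those near other RefSeq starts left 216 and 1291. The causes of these changes were not tested. No paired analysis was possible because there is 1 group. With 2 replicates the spread is known only roughly, and a cluster missing from the library with fewer peaks cannot be told apart from one below its detection limit.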
